A study of Mus musculus with 6 samples.

Results

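The 42 genes described here are interferon response genes of the mouse, read in single cells of the bladder mucosa. They form a list chosen by name, with earlier results of these data known, and were matched to the count tables by Ensembl gene identifier. All 42 of 42 were found among the 14348 genes that the tables of all 6 libraries list once mitochondrial and ribosomal protein genes are set aside. Every mouse was a wild type C57BL/6 animal of 8 weeks. Healthy mice were the uninjured controls, acutely injured mice were taken at 48 h of CPP (cyclophosphamide, a drug whose breakdown product acrolein damages the lining of the bladder), and chronically injured mice had 4 rounds of CPP in 11 days. Each of the 3 groups has 2 libraries, called healthy 1 and 2, acute 1 and 2, and chronic 1 and 2. The groups held male and female mice, only the mucosa was used after it was peeled from the detrusor muscle, each group had several mice, and how they were divided between its libraries is not given in the sources used here. The study calls the libraries of a group biological replicates, but the labels tie none of them to animals, so p-values measure only the spread between these libraries, part of which may be technical.

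Interferons are secreted proteins that cells release when they sense viral or damaged nucleic acid. Type I interferons signal through the receptor Ifnar1/Ifnar2 and the kinases Jak1 and Tyk2 to a complex that holds Stat2 and Irf9 and binds the interferon-stimulated response element (ISRE) of its target genes, whereas type II interferon signals through Ifngr1/Ifngr2 to the gamma-activated site (GAS). The targets include more sensors and transcription factors of the same pathway, proteins that block viral replication, the ubiquitin-like protein Isg15, GTPases that attack intracellular compartments, and the machinery that presents peptides on MHC class I. Accordingly, the 42 genes were read in 7 roles, namely 4 transcription factors, 5 nucleic acid sensors, 10 antiviral effectors, the Isg15 system with 2 genes, 8 other interferon-induced genes, 6 GTPases and 7 genes of MHC class I presentation.

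The promoters were searched for both elements, since these are the sequences that the pathway's transcription factors are known to bind. RefSeq promoter windows of build GRCm38.p6, from 250 bases before to 50 bases after the start site, were matched for 34 of the 42 genes (40 windows). An ISRE core, spelled GAAANNGAAA and searched on both strands, was present in 17 of the 34 genes (50%), against 3.99% of the 27025 genes with a window and 3.44% of the 32851 promoters. A GAS core, spelled TTCNNNGAA, was present in 10 (29.4%), against 9.55% of genes and 8.3% of promoters. Both cores occurred in 5 of the 40 windows and overlapped each other in 2. By role, the ISRE core was found in 5 of 5 GTPases, 3 of 3 sensors, 6 of 10 antiviral effectors and the 1 gene of the Isg15 system that was matched, but in 1 of 7 genes of MHC class I presentation (B2m), 1 of 4 transcription factors (Stat2) and 0 of 4 of the other interferon-induced genes. The windows of Psmb9 and Tap1, which lie head to head on chromosome 17, share 275 bases on opposite strands. A match describes the letters of the window and not a bound site.

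The sequences below show the 160 bases up to the start site for genes that the later comparisons turn on, one or more for most roles, 5′ to 3′ on the strand of the gene. Capitals mark the ISRE core, or for Irf1 the GAS core, and adjoining capitals are cores that overlap. Isg15 (chr4:156200819-156200978, minus strand) has 3 cores that begin 78, 72 and 66 bases before the start site, while Ifit1 (chr19:34640729-34640888, plus) and Ifit3 (chr19:34583369-34583528, plus) each have 2 separate ones. Bst2 (chr8:71537473-71537632, minus) and Irgm1 (chr11:48871421-48871580, minus) have 2 that overlap. Rsad2 (chr12:26456453-26456612, minus), Gbp2 (chr3:142620503-142620662, plus) and B2m (chr2:122147527-122147686, plus) have 1, and Irf1 (chr11:53769854-53770013, plus) has a single GAS core.
Isg15: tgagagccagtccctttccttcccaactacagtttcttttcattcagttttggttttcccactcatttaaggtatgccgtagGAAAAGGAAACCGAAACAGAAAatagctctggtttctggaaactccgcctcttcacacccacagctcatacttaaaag
Ifit1: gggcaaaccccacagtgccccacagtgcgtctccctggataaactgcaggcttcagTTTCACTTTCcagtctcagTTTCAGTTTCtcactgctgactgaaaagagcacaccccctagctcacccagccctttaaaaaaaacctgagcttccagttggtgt
Ifit3: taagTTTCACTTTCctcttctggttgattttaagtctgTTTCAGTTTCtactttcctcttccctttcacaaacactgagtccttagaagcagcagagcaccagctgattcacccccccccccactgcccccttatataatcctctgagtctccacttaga
Bst2: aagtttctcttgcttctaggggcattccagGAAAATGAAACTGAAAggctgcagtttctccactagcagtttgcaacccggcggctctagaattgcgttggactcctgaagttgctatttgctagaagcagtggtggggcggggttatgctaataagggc
Rsad2: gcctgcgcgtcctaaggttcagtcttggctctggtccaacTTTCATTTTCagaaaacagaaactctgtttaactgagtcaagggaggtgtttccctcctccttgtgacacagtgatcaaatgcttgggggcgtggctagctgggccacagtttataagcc
Gbp2: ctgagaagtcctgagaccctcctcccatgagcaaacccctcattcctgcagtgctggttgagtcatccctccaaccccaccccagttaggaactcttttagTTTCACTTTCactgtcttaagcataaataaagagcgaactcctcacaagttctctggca
Irgm1: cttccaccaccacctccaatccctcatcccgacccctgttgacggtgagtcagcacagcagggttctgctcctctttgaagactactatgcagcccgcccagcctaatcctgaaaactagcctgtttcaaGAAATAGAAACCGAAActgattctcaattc
B2m: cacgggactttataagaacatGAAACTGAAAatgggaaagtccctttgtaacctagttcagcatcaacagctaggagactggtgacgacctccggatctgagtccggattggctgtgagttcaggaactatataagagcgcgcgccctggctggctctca
Irf1: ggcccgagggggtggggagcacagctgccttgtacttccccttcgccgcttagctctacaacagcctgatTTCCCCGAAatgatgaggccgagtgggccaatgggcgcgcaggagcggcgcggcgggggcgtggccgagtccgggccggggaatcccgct

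These 9 genes were picked by hand, and each has a core. All 9 were higher in fibroblasts than in the urothelium, but so were 36 of the 42 genes, with the share over all genes given below. Irf7 and Xaf1, with neither core in their windows, were also higher, whereas Ddx58, with an ISRE core, was not. A link between core and level was not tested. B2m and Irf1 had a different course after injury, as described further on.

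The libraries held 54604109 to 111985678 UMIs (unique molecular identifiers, 1 per captured transcript molecule), with a median of 5530 to 9138 per cell, and 49895 of 55398 cells that passed the filters were kept. Cells were clustered without the 42 genes and named by marker genes, which gave 5138, 6682, 4141, 5060, 7912 and 4068 urothelial cells in the 3 layers from healthy 1 to chronic 2. Fibroblasts numbered 801, 1350, 319, 1435, 1189 and only 26 in chronic 2. The endothelial class had 15 cells in healthy 2, under the minimum of 20, so healthy endothelium rests on healthy 1 with 50 cells. Pairs of libraries shared 36 to 208 cell barcodes, at most 2.04% of the smaller library. Acute 2 was counted with a newer annotation than the others, and counts of Ifit3, which has the near-identical copy Ifit3b, and of H2-K1 and H2-D1, which resemble each other, are uncertain where reads could fall on either copy. Levels are given as CPM, the UMIs of a gene relative to those of the 14348 genes used in its class and library, scaled to a fixed total.

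The 42 genes were most abundant outside the urothelium. The module mean, here the mean of log2(CPM + 1) over the 42 genes, was 5.81, 5.12, 6.12, 6.91, 6.49 and 5.90 in fibroblasts from healthy 1 to chronic 2, and 3.71, 2.94, 3.92, 3.97, 3.84 and 4.10 in intermediate urothelial cells. In each library fibroblasts lay above the urothelium as a whole, by 2.29 ± 0.43 log2 units (SD, n = 6). Endothelial cells (6.00 to 7.81 in 5 libraries) and macrophages (5.57 to 7.67) reached the highest values, and NK/T cells, present in 3 libraries, had 4.40 and 3.89 in the healthy and 5.97 in acute 2. Myofibroblasts were at 4.80 to 6.57 and a class led by MHC class II genes at 4.72 to 6.31 (without acute 1, which had 15 cells). Healthy 2 was the lowest library in basal, intermediate and superficial cells, fibroblasts, myofibroblasts, macrophages and the MHC class II class.

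**Figure D1:**
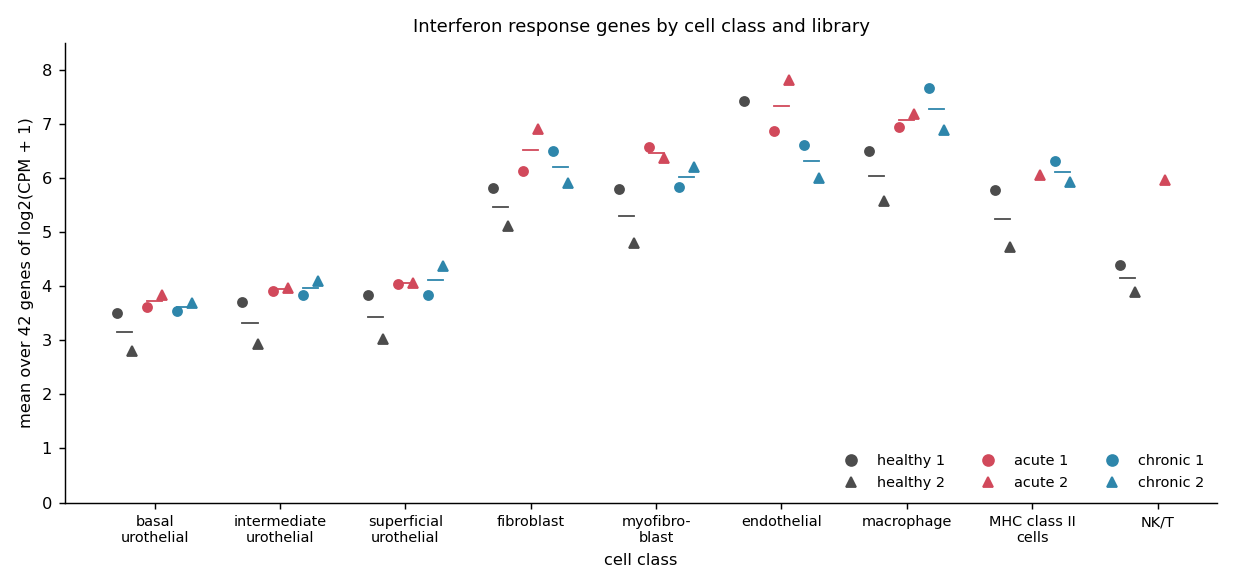
Mean of log2(CPM + 1) over the 42 interferon response genes for each cell class (x axis), with 1 point per library (circle for replicate 1, triangle for replicate 2) and a dash at the mean of each group. The 3 urothelial layers lie between 2.81 and 4.38, fibroblasts between 5.12 and 6.91, and healthy 2 is the lowest point in each class where it is shown.

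Fibroblasts against the urothelium of the same libraries gave 36 genes called higher and 1 called lower of 42 tested (edgeR quasi-likelihood test with the library as a block, Benjamini-Hochberg adjusted p below 0.05), where 33% of all genes were called higher and 38.5% lower. The median log2 fold change of the 42 genes was 2.46, against -0.08 over all genes tested. Every GTPase (6 of 6, median 4.22) and every transcription factor (4 of 4, median 1.81) was called higher. So were 9 of 10 antiviral effectors (median 3.67), 4 of 5 sensors (median 1.18), 6 of 8 other interferon-induced genes, 6 of 7 genes of MHC class I presentation (median 1.35) and Isg15 itself, but not Usp18, the protease that removes Isg15 from its targets and dampens the receptor (log2 fold change 0.04 ± 0.24 SE). The largest differences were those of Ifi27l2a (5.95 ± 0.35), a small mitochondrial membrane protein, of Ifit3 (5.80 ± 0.35), which binds viral RNA together with Ifit1, and of Zbp1 (5.79 ± 0.27), a sensor of Z-form nucleic acid that triggers cell death. Isg15 followed with 5.50 ± 0.38 (adjusted p = 4.8e-14), higher in fibroblasts in 6 of 6 libraries.

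Against this background, 6 of the 42 genes were not higher in fibroblasts. Oasl1, which restrains translation of Irf7, was lower (log2 fold change -1.61 ± 0.47, adjusted p = 0.003, edgeR) in 6 of 6 libraries. Ifi44 (1.10 ± 0.51), the RNA sensor Ddx58 (0.31 ± 0.18), Ifi27 (0.19 ± 0.28), Usp18 (above) and the MHC class I heavy chain H2-K1 (-0.25 ± 0.16) did not pass. H2-K1 was at 633, 255, 408, 211, 370 and 417 CPM in intermediate cells and at 394, 223, 255, 271, 368 and 431 CPM in fibroblasts, so that either class was higher depending on the library.

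Myofibroblasts, the Acta2-expressing stromal cells, gave a similar count of 37 higher and 1 lower of 42 (all genes, 30.8% higher and 38.6% lower). Iigp1, a GTPase that disrupts vacuoles of intracellular parasites, led with 6.85 ± 0.44 log2 units over the urothelium. Compared directly with fibroblasts, 2 of 42 genes were called higher in myofibroblasts (8.07% of all genes) and 2 lower (7.58%). Iigp1 was higher by 1.22 ± 0.39 (adjusted p = 0.029, edgeR) and Ifi27 by 0.92 ± 0.29 (adjusted p = 0.026). Samhd1, which depletes nucleotides that viruses need, was lower by -0.67 ± 0.21 log2 units (adjusted p = 0.029) in 6 of 6 libraries, and Irf9 by -0.68 ± 0.24 (adjusted p = 0.045). These 4 calls fell to 1 without healthy 1 or without chronic 1 and to 2 without healthy 2, acute 2 or chronic 2.

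Endothelial cells had 39 genes called higher and 1 lower of 42 in 5 libraries, against 20.7% and 31% of all genes, with a median of 3.24. Iigp1 was at 724 CPM in healthy 1, 265 and 322 in the acute and 286 and 161 in the chronic libraries, and its log2 fold change over the urothelium was 8.22 ± 0.46. Rsad2, which makes a chain-terminating nucleotide, followed with 6.57 ± 0.62 and Gbp3, a guanylate-binding GTPase, with 6.20 ± 0.29. The exception was Lgals3bp, a secreted glycoprotein that binds galectin-3, at -1.05 ± 0.23 (adjusted p = 2.7e-04, edgeR) and lower in 5 of 5 libraries.

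In macrophages 38 genes were higher and 0 lower of 42 (22.6% of all genes were higher and 34.6% lower), with a median of 3.61. No gene was lower by the unadjusted p either, and DESeq2 called 40 of the 42 genes different (55.4% of all genes). Rsad2 (8.02 ± 0.58), Isg15 (7.37 ± 0.42), Ifit2 (7.28 ± 0.45) and Zbp1 (6.41 ± 0.32) led. Oasl1, lower in fibroblasts than in urothelium, was higher here by 4.14 ± 0.37, with 277 and 4.26 CPM in the healthy, 162 and 80.5 in the acute and 136 and 94.6 in the chronic libraries. Eif2ak2, the kinase PKR that senses double-stranded RNA, Ddx58, Stat2 and Usp18 did not pass (0.22 to 0.64). NK/T cells of 3 libraries had 18 of 42 called higher (8.54% of all genes) and 0 lower by edgeR (16.1% of all genes, and 1 of the 42 by the unadjusted p), with 24 called different by DESeq2 (16.4%), and 6 of 7 genes of MHC class I presentation were among them. Zbp1 was at 21.1 and 13.8 CPM in healthy and at 128 in acute 2 NK/T cells. Ifitm3, which stops viruses at endosomes, was at 262, 110 and 364 CPM and did not differ from the urothelium beyond its error (0.04 ± 0.25). When clusters were built without integrating the libraries, macrophages separated in chronic 1 alone, which left 1 library and 0 calls for that class.

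These fold changes move with the scaling. DESeq2's median-of-ratios factors in place of TMM shifted the median of all genes by 0.20 to 0.30 log2 units in the comparisons of cell types with the urothelium. The medians over the 42 genes, 1.54 to 3.61, exceeded this shift.

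**Figure D2:**
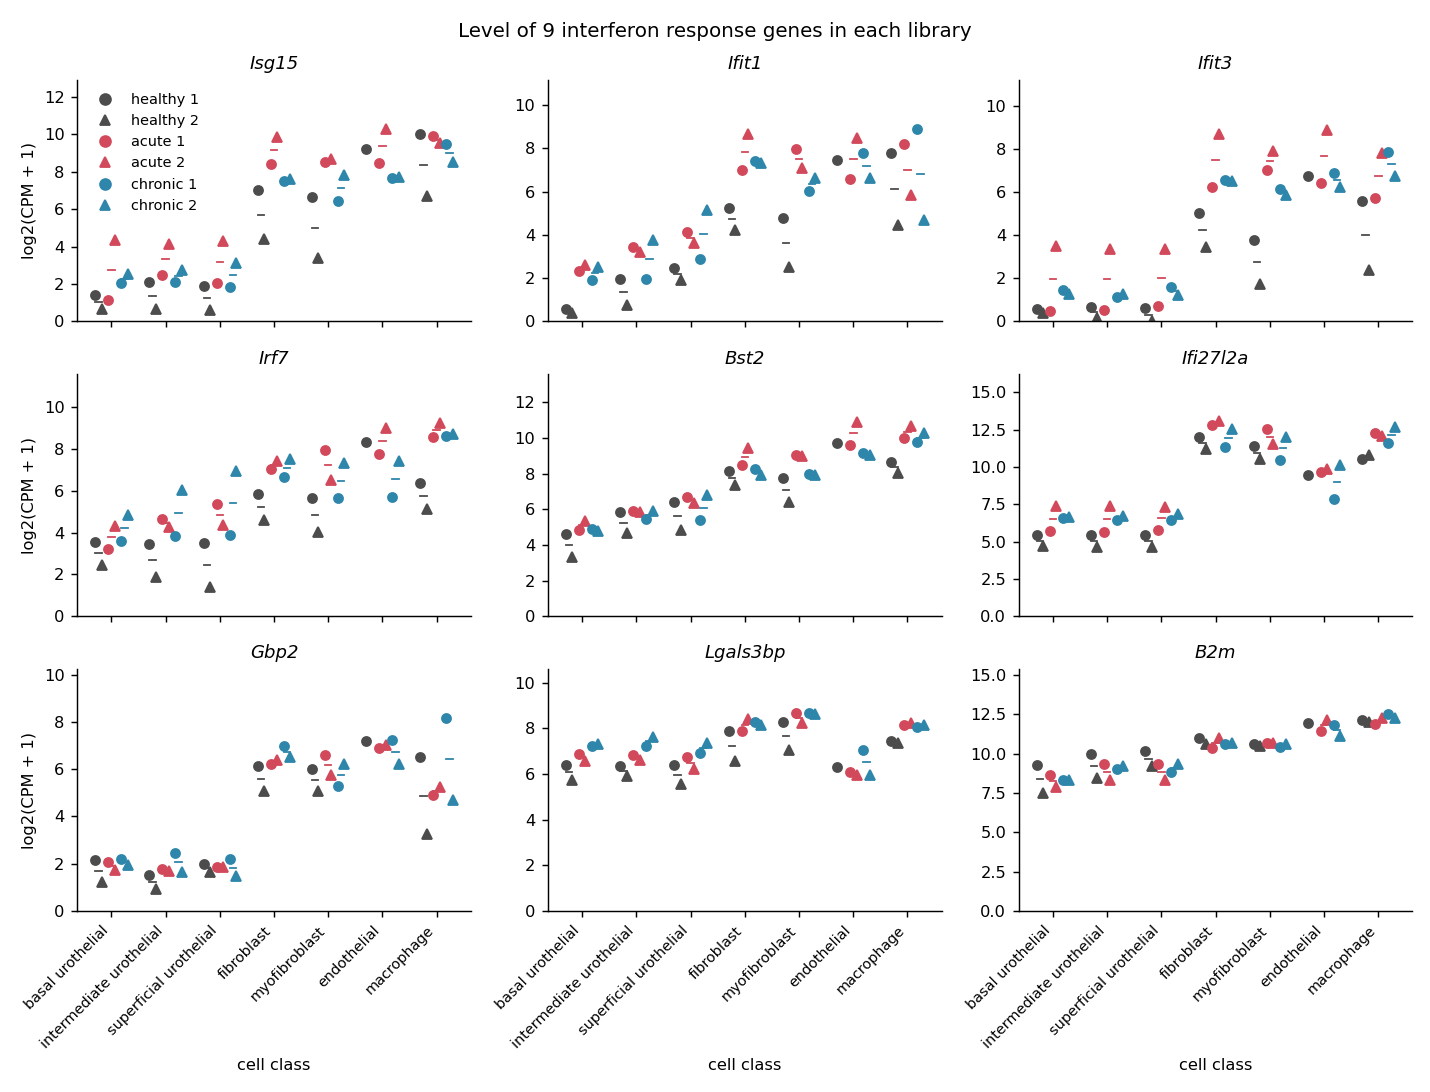
Level of 9 of the 42 genes as log2(CPM + 1) (y axis) in 7 cell classes (x axis), with 1 point per library and a dash at the mean of each group. Isg15, Ifit1, Ifit3, Ifi27l2a and Gbp2 step up between the urothelial layers and the stromal classes in each library, whereas Lgals3bp and B2m differ less between classes.

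Across the urothelium itself, more of the genes were higher than lower towards the lumen. Superficial (umbrella) cells against basal cells gave 23 called higher and 2 lower of 36 tested, against 33.2% and 32.8% of all genes, with a median of 0.49 over the tested members and 0.01 over all genes. By role, 6 of 7 genes of MHC class I presentation, 6 of 8 other interferon-induced genes, 5 of 7 antiviral effectors, 3 of 4 sensors, 2 of 4 transcription factors, 1 of 2 genes of the Isg15 system and 0 of 4 GTPases were higher. The 6 genes not tested, Dhx58, Ifit2, Ifit3, Rsad2, Gbp3 and Iigp1, did not pass the filter on low counts. Without the filter, 25 of 42 were higher and 2 lower at an unadjusted p below 0.05.

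Psmb8, a subunit of the immunoproteasome that cuts peptides for MHC class I, was at 29.1, 17.9, 25.7, 25.4, 33.5 and 23.1 CPM in basal cells, at 73, 34.5, 59, 42.8, 62.5 and 49.4 in intermediate cells and at 121, 56.1, 95.1, 65.8, 71.7 and 85 in superficial cells. In each of the 6 libraries it was higher from layer to layer, and its log2 fold change between superficial and basal cells was 1.82 ± 0.11 (adjusted p = 2.0e-11, edgeR). Bst2 (tetherin), which holds budding virus at the membrane, rose by 1.65 ± 0.16, Ddx58 by 1.35 ± 0.10, B2m, the light chain of MHC class I, by 1.05 ± 0.12 and Ifit1 by 2.21 ± 0.26. Ifi44 had the largest difference (2.61 ± 0.40), at levels of 0 to 7.18 CPM in superficial cells and higher there in 5 of 6 libraries.

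The 2 genes called lower in superficial than in basal cells were Ifitm3 and Ifi35, the latter by a smaller difference (-0.38 ± 0.12, lower in 5 of 6 libraries). Ifitm3 fell by 1.04 on the log2 scale (SE 0.10) from basal to superficial cells, with 242, 152, 310, 393, 268 and 265 CPM in basal and 142, 49, 84, 179, 133 and 136 in superficial cells, so that basal cells were higher in each library. Oasl1 was highest in the intermediate layer. It was at 1.94, 1.51, 4.81, 3.55, 2.47 and 4.72 CPM in basal, at 5.64, 4.95, 11.6, 9.04, 9.47 and 14.5 in intermediate and at 2.41, 1.63, 2.01, 3.62, 3.97 and 6.4 in superficial cells. Its log2 fold change was 1.62 ± 0.18 from basal to intermediate and -1.39 ± 0.16 from intermediate to superficial cells, both in 6 of 6 libraries. In these neighbouring steps 16 genes were higher and 1 lower between intermediate and basal cells (20.8% and 22.8% of all genes), and 16 higher and 3 lower between superficial and intermediate cells (28.5% and 27.3%).

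**Figure D3:**
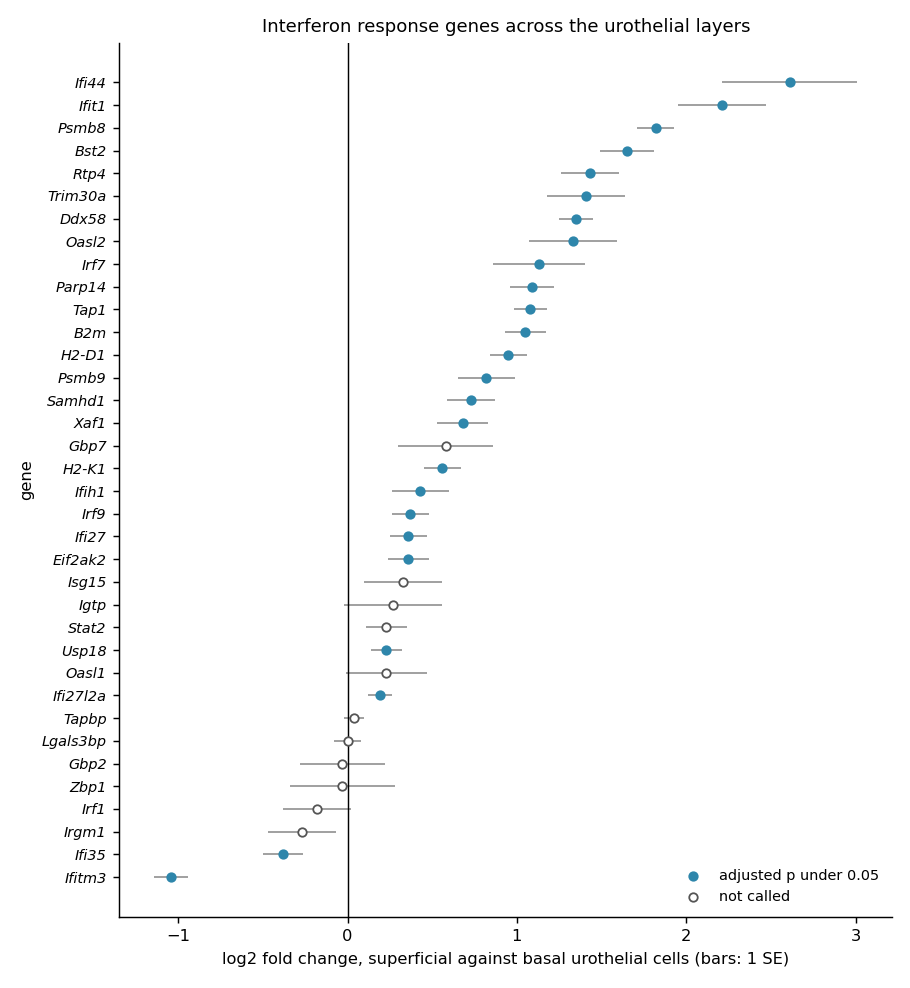
Log2 fold change between superficial and basal urothelial cells (x axis) for the 36 genes tested (y axis), with bars of 1 SE, filled where the adjusted p was below 0.05. The filled points run from Ifitm3 at -1.04 to Ifi44 at 2.61, with 23 above 0 and 2 below.

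For several genes the urothelial level was as small a share of the fibroblast level as that of stromal markers. The 12 stromal marker genes, collagens among them, stood in the urothelial layers at a median of 0.652 to 2% of their fibroblast level in the same library, and the single markers at 0 to 9%. Isg15 in intermediate cells was at 2.52, 3.03, 1.35, 1.79, 1.84 and 2.99% of the fibroblast level, Ifi27l2a at 1.03, 0.976, 0.68, 1.91, 3.28 and 1.69%, and Zbp1 at 0.712 to 2.69%. Isg15 exceeded the highest stromal marker in intermediate cells of both healthy libraries, acute 1 and chronic 2, but not of acute 2 and chronic 1. Ifit3 did not exceed the highest stromal marker in any library in intermediate cells, and neither Ifit3 nor Ifi27l2a did in superficial cells. By contrast, H2-K1 was at 78.1 to 161%, Ddx58 at 35.6 to 107% and Oasl1, in 5 libraries, at 167 to 1470% of the fibroblast level, all above the range of the markers. The part of carried-over fibroblast RNA in the urothelial values of the low genes was not tested.

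**Figure D4:**
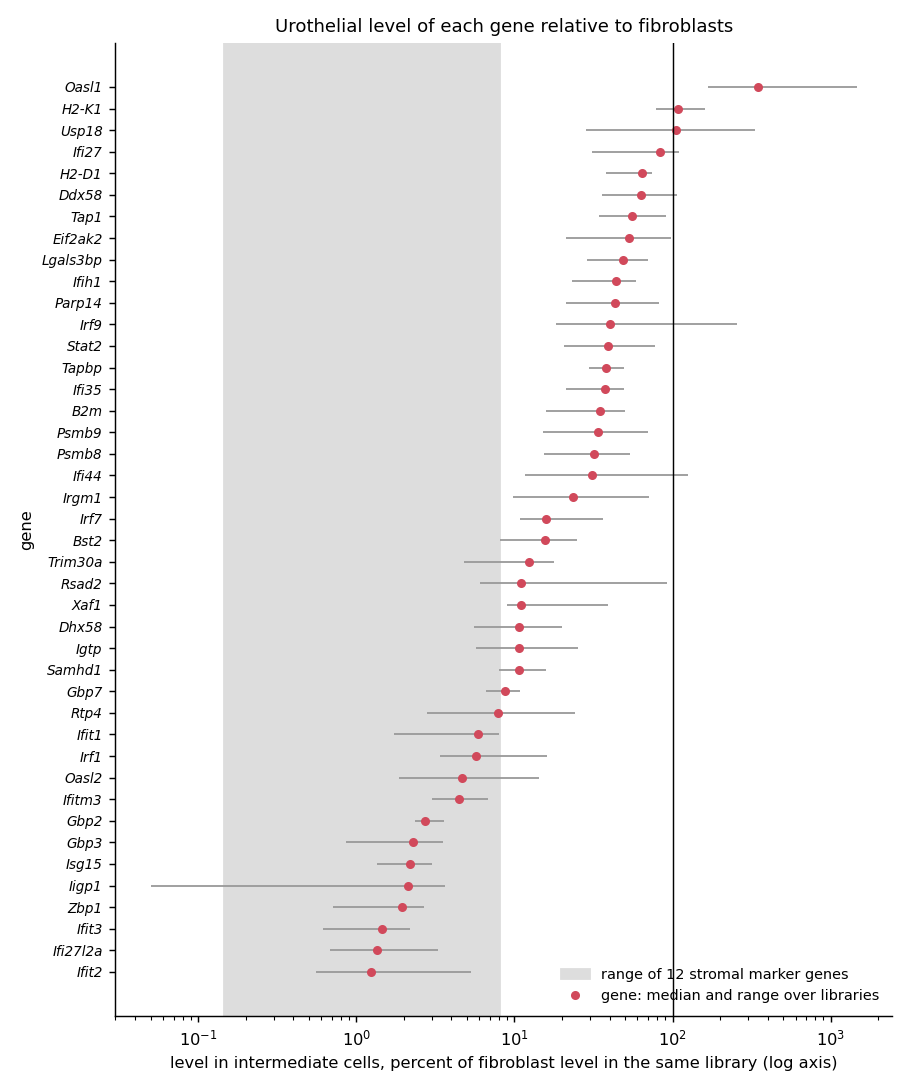
Level of each gene in intermediate urothelial cells as a percentage of its fibroblast level in the same library (x axis, log scale), as the median (point) and range (line) over the libraries, with the range of the 12 stromal marker genes shaded. Oasl1, H2-K1 and Usp18 have medians above the line at 100%, while Ifit2, Ifi27l2a, Ifit3, Zbp1, Iigp1, Isg15, Gbp3 and Gbp2 have the lowest medians, all in the shaded range (a value of 0 for Iigp1 is drawn at the left end of its line).

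Injury was then compared within each class, with libraries as replicates. No gene of the 42 was called at an adjusted p below 0.05 in any of the 21 comparisons of acute, chronic and healthy libraries in 7 classes (edgeR), where 0 to 0.256% of all genes were called. The counts that follow therefore use the unadjusted p and the order of the libraries, beside the same share over all genes tested.

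In fibroblasts, acute injury went with higher levels of most of the 42 genes. Of 41 tested, 37 had a positive log2 fold change, 27 were higher in both acute than in both healthy libraries (15.2% of all genes), and 22 had an unadjusted p below 0.05 with a higher level (2.5% of all genes), and none of the tested members had one with a lower level. Without the filter on low counts the count of higher genes was 23 of 42 (2.49% of all genes). At the adjusted threshold edgeR called 0 members (0.11% of all genes were called) and DESeq2 called 1, Ifit1 (0.238% of all genes). The median log2 fold change was 1.01 over the tested members and 0.00 over all genes.

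Ifit1, which blocks translation of viral RNA, was at 37.2 and 17.5 CPM in the healthy, 127 and 412 in the acute and 168 and 159 in the chronic fibroblasts. All 4 injured libraries lay above both healthy ones, and the acute log2 fold change was 3.32 ± 0.58 (adjusted p = 0.089, edgeR). Ifit3 had 31.6 and 10.1, then 75.9 and 424, then 93.8 and 90.8 CPM (acute log2 fold change 3.61 ± 0.75, adjusted p = 0.2). Isg15 had 129 and 19.9 CPM in the healthy libraries, 346 and 930 in the acute and 179 and 193 in the chronic libraries, again without overlap between injured and healthy, though the healthy libraries differed widely from each other. Its acute log2 fold change was 3.12 ± 0.75 (adjusted p = 0.36). Without healthy 2, the lowest library, the log2 fold changes were 2.87 for Ifit1, 3.01 for Ifit3 and 2.32 for Isg15, and without acute 2, the highest, they were 2.19, 1.85 and 2.20.

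The transcription factor Irf7, which drives type I interferon genes, was at 55.8 and 23.3 CPM in healthy, 131 and 168 in acute and 99.8 and 182 in chronic fibroblasts, with no overlap (acute log2 fold change 1.93 ± 0.44, adjusted p = 0.3, edgeR). Stat2 had 24.2 and 10.1, 27.8 and 65.9, and 39.2 and 56.7 CPM, with acute 1 only just above healthy 1. Zbp1 (51.2 and 22.3, 150 and 138, 99.8 and 68.1 CPM) was also higher in each injured library than in each healthy one. Among the sensors 4 of 5 had an unadjusted p below 0.05 in acute fibroblasts, among the antiviral effectors 6 of 9 (median 1.72), in the Isg15 system 2 of 2, among the other interferon-induced genes 5 of 8 and among the transcription factors 2 of 4. The counts were 1 of 6 for the GTPases (median 0.96) and 2 of 7 for MHC class I presentation (median 0.14), and differences between roles were not tested. B2m was at 2013 and 1564 CPM in the healthy and 1296 and 1988 in the acute libraries (-0.12), and H2-K1 at 394 and 223 and at 255 and 271 (-0.23), with the groups overlapping for both.

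Other genes of the list spread between these extremes in acute fibroblasts. Rsad2 (3.29 ± 0.70), Rtp4 (2.08 ± 0.56), Usp18 (2.05 ± 0.62), Ifi27l2a (1.28 ± 0.45), Bst2 (1.25 ± 0.44) and Psmb8 (0.84 ± 0.37) had an unadjusted p below 0.05. Ifitm3 (0.67), Gbp2 (0.63), Igtp (0.80), H2-D1 (0.14) and Ifi27 (0.04) did not. The calls depended on the libraries. Without acute 1, which leaves acute 2 as the only acute library with its spread taken from the other groups, 14 of the 42 genes passed the adjusted threshold (1.09% of all genes), 13 of them higher, including Isg15 (3.66), Ifit1 (3.93), Ifit3 (4.36) and Irf7 (2.11), and Irf1 lower (-2.45). Without healthy 1 there were 3 calls (0.14% of all genes) and without acute 2 there was 1 (0.397%). Without acute 2 the log2 fold changes were 2.00 for Rsad2, 0.68 for Rtp4, 0.81 for Usp18, 1.11 for Ifi27l2a, 0.66 for Bst2 and 0.39 for Psmb8.

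Chronic fibroblasts had 37 of 41 positive log2 fold changes, 22 genes higher in both libraries than in both healthy ones (21.2% of all genes) and 15 with an unadjusted p below 0.05 (3.31%, and 14 of 42 without the filter, against 3.26%), with a median of 0.79 against -0.05 over all genes. EdgeR called 0 members (0.0731% of all genes) and DESeq2 called Ifit1 (0.256% of all genes). Ifit1 (2.46 ± 0.58), Rsad2 (2.63 ± 0.81) and Ifit3 (2.04 ± 0.76) again had the largest values, and Igtp (1.58), Tap1 (1.58 ± 0.43), which pumps peptides to MHC class I, and Gbp2 (1.06) had larger values than in acute injury, a difference that did not pass the test between acute and chronic libraries. These 3 values rest on chronic 1, since without that library they were -0.72 for Igtp, 0.04 for Tap1 and 0.59 for Gbp2. Tap1 was at 21.4 and 15.8 CPM in healthy and 69.9 and 22.7 in chronic libraries. Samhd1, at 71.6 and 60.7 CPM in the healthy and 71.3 and 81.6 in the acute libraries, was at 124 and 125 in the chronic ones. Ifi27l2a (0.20), Bst2 (0.20), Ifitm3 (-0.15) and B2m (-0.33) had small log2 fold changes. The chronic values rest on 1189 cells of chronic 1 and 26 cells of chronic 2, and without chronic 2 edgeR again called 0 members. Without acute 1 or acute 2, whose spread enters the fit, 2 members (Ifit1 and Ifit3) were called, against 0.554% and 0.538% of all genes.

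Acute and chronic fibroblasts were also compared directly. Isg15 was higher in acute libraries by 1.94 ± 0.74, Ifi27l2a by 1.09 ± 0.45 and Bst2 by 1.05 ± 0.45 log2 units, each with an unadjusted p below 0.05 (3 members of 41, against 1.83% of all genes) and an adjusted p of 1 (edgeR). Bst2 was at 286 and 161 CPM in healthy, 357 and 695 in acute and 310 and 238 in chronic fibroblasts. DESeq2 called 0 members, and without acute 1 edgeR called 3, Isg15 (2.49) and Ifit3 (2.33) higher and Irf1 (-2.61) lower in acute libraries (0.692% of all genes). Without acute 2 the differences were 1.03 for Isg15 and 0.46 for Bst2, and without chronic 1 that of Ifi27l2a was 0.64.

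**Figure D5:**
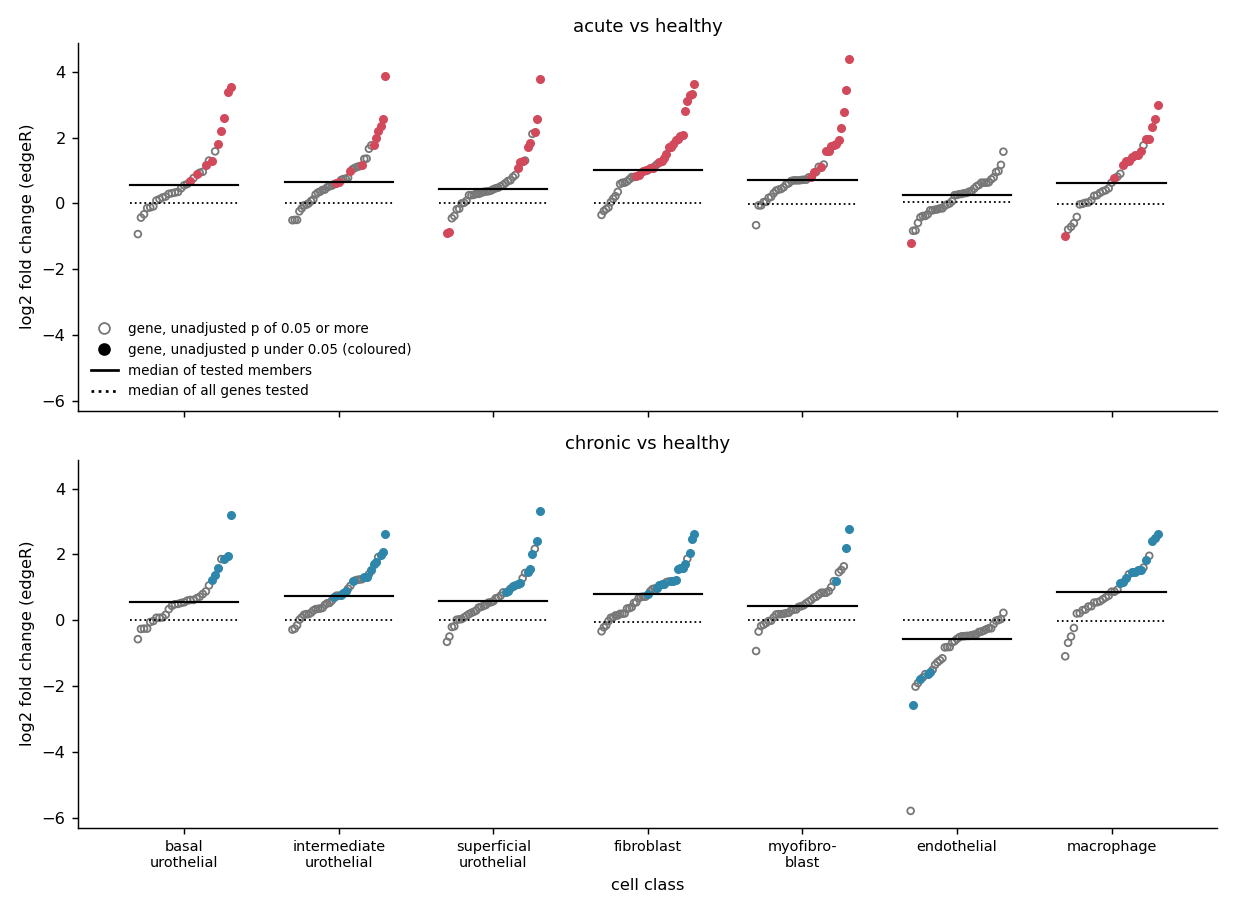
Log2 fold change of each tested gene of the 42 (points, y axis) in acute (upper panel) and chronic (lower panel) against healthy libraries for 7 cell classes (x axis), in increasing order within a class and filled where the unadjusted p was below 0.05. Solid lines mark the median of the tested members (1.01 in acute and 0.79 in chronic fibroblasts, -0.56 in chronic endothelial cells) and dotted lines that of all genes. No point has an adjusted p below 0.05.

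The 3 fibroblast subtypes, each named by the marker set with the highest mean score, had the same order of libraries for Isg15. The Inmt/Sct/Ass1 subtype joins clusters of 1465 and 963 cells, both with Bglap and Bglap2 among their leading genes. Only the larger had Inmt there, and 922 of its cells came from acute 2. Chronic 2 had at most 13 cells of a subtype and was left out. The Pi16/Mfap5 subtype had Isg15 at 125 and 27.8 CPM in healthy, 395 and 1080 in acute and 204 in chronic 1 libraries. In the Has1/Scara5/Bglap2 subtype the values were 94.8 and 5.67, 196 and 761, and 135 CPM, and in the Inmt/Sct/Ass1 subtype 175 and 18.7, 454 and 901, and 197 CPM. In each subtype Isg15 was highest in acute 2 and lowest in healthy 2. Ifit3 reached 642 CPM in acute 2 in the Pi16/Mfap5, 193 in the Has1/Scara5/Bglap2 and 381 in the Inmt/Sct/Ass1 subtype, against healthy values of 4.25 to 44.8. The module mean had another order, since chronic 1 lay between acute 1 and acute 2. It was 5.68 and 6.55 in the acute libraries and 6.30 in chronic 1 in the Has1/Scara5/Bglap2 subtype, and 6.43, 6.90 and 6.50 in the Inmt/Sct/Ass1 subtype, and the differences between subtypes were not tested.

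Irf1, a transcription factor that answers interferon gamma and also many stress signals, had overlapping acute and healthy values in the stroma, as B2m and H2-K1 had in fibroblasts. It was at 340 and 131 CPM in healthy, 334 and 42.4 in acute and 369 and 159 in chronic fibroblasts, and at 468 and 141, 353 and 43.1, and 297 and 429 in myofibroblasts, with acute 2 the lowest library in both. In the Pi16/Mfap5 subtype it was at 31.5 CPM in acute 2, against 75.6 to 224 in the others. The sum of 21 immediate-early and stress genes, which respond to tissue dissociation, was 27045 and 21823 CPM in healthy, 32728 and 11350 in acute and 34661 and 35030 in chronic fibroblasts, so acute 2 was lowest there too. The part of this difference between libraries in the Irf1 values was not tested. The acute log2 fold change of Irf1 was -0.35 ± 0.77 in fibroblasts and -0.66 in myofibroblasts.

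In myofibroblasts most of the tested genes were higher in both acute than in both healthy libraries. Ifit3 was at 12.7 and 2.34 CPM in the healthy, 129 and 241 in the acute and 70.2 and 57.5 in the chronic libraries, with no overlap between any of the groups. Its acute log2 fold change was 4.37 ± 0.60 (adjusted p = 0.13, edgeR) and its chronic one 2.78 ± 0.65 (adjusted p = 0.73). Without healthy 1 the chronic value was 4.69, and without healthy 2 it was 2.25. Ifit1 was at 26.6 and 4.69, 252 and 134, and 64.8 and 99.6 CPM (acute 3.43 ± 0.66), and Bst2 at 215 and 83.2, 531 and 512, and 254 and 241 CPM (acute 1.79 ± 0.44), so that the chronic libraries lay between the healthy and the acute ones. Isg15 (2.77 ± 0.84), Irf7 (2.28 ± 0.72) and Usp18 (1.93 ± 0.45) also had an unadjusted p below 0.05 in acute myofibroblasts. These sizes depended on single libraries. Without healthy 1 they were 5.42 for Isg15, 3.49 for Irf7, 5.38 for Ifit1 and 2.70 for Bst2, without healthy 2 they were 1.97 for Isg15 and 1.27 for Bst2, without acute 1 Irf7 was at 1.40, and without acute 2 Usp18 was at 1.28.

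In all, 27 of 38 tested members were higher in both acute than in both healthy myofibroblast libraries (13.7% of all genes), 13 with an unadjusted p below 0.05 (1.4%), and 35 had a positive log2 fold change (median 0.71). Without the filter 18 of 42 had such a p (2.23% of all genes) and 11 passed the adjusted threshold (0.564% of all genes). The filtered edgeR fit called 0 (0.0123% of all genes) and DESeq2 called 2, Ifit1 and Ifit3 (0.0862% of all genes). The chronic counts were 15 higher without overlap (18% of all genes) and 3 with an unadjusted p below 0.05 (3.5%). None of these passed adjustment, and DESeq2 called Ifit3 (0.209% of all genes). Without the filter 7 of 42 were higher and 1 lower in chronic myofibroblasts by the unadjusted p (2.94% and 2.89% of all genes). Leaving out healthy 1 or acute 1 gave 1 acute call, Ifit3 (0.0346% and 0.279% of all genes). Psmb9, an immunoproteasome subunit, was higher in acute and lower in chronic than in healthy myofibroblasts, at 45.5 and 37.5, 58.2 and 76.1, and 16.2 and 26.8 CPM. All chronic myofibroblast values rest on 86 and 87 cells, against 1005 and 362 healthy and 153 and 2643 acute cells. Between acute and chronic libraries Psmb9 differed by 1.64 ± 0.43 (adjusted p = 0.8, edgeR). It was 1 of 3 tested members with an unadjusted p below 0.05 in that comparison (2.04% of all genes). Without the filter 10 of 42 had such a p and a higher acute level (2.97% of all genes). Summed CPM of 14 leukocyte genes ranged from 142 to 261 in myofibroblasts and from 51.8 to 374 in fibroblasts, against 61444 to 102184 in macrophages.

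Endothelial cells had high levels in healthy 1, the only healthy library with enough cells of this class. In acute against healthy endothelium 22 of 39 log2 fold changes were positive. Iigp1 was the 1 tested member with an unadjusted p below 0.05 and a lower level (-1.21 ± 0.47, 1.26% of all genes). No tested member had such a p and a higher level, and edgeR called 0 (0.0682% of all genes). Without the filter 1 of 42 was higher and 1 lower by that p (1.69% and 1% of all genes). In chronic endothelium 36 of 39 were negative (median -0.56, against 0.01 over all genes), and 4 had an unadjusted p below 0.05 (5.52% of all genes were lower by that measure). Without the filter 10 of 42 had such a p and a lower level (4.66% of all genes). The 4 were Rsad2 (-2.56 ± 1.06), Iigp1 (-1.77 ± 0.51, adjusted p = 0.23, edgeR), Parp14 (-1.62 ± 0.64) and Isg15 (-1.56 ± 0.68). EdgeR (0.256% of all genes called in chronic endothelium) and DESeq2 called 0 members. Because only healthy 1 entered, with 50 cells, the spread of the healthy group was taken from the other groups. Healthy 2, the lowest library in most other classes, is missing from this healthy level. The part of this in the log2 fold changes was not tested.

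Acute against chronic endothelium had 2 libraries on either side. Isg15 was at 355 and 1245 CPM in acute and 202 and 211 in chronic libraries, Bst2 at 772 and 1949 against 571 and 533, and Irf7 at 218 and 519 against 50.4 and 173, and for each of them the groups did not overlap. Of 39 tested, 37 had a higher acute level (median 0.75), 16 without overlap (17.4% of all genes), and 12 had an unadjusted p below 0.05 (4.28%), among them Rsad2 (3.20 ± 0.92), Zbp1 (2.80 ± 0.83) and Ifit2, which had the largest value and the largest error (6.51 ± 2.61). Isg15 differed by 2.12 ± 0.60 (adjusted p = 0.63, edgeR). EdgeR and DESeq2 called 0 members at the adjusted threshold, and edgeR called 6 without acute 1 (2.32% of all genes). The values rest on acute 2, since without it the log2 fold changes were 0.73 for Isg15, 1.23 for Rsad2, 0.43 for Bst2 and 0.83 for Irf7, while Zbp1 was at 2.28. The chronic endothelial classes hold 25 and 21 cells, and the summed leukocyte genes were 941 and 1474 CPM there against 307 to 416 in the other 3 libraries. The part of this in the values was not tested.

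In macrophages Irf7 and Bst2 were higher in all 4 injured libraries than in both healthy ones. Irf7 was at 81.9 and 34 CPM in the healthy, 377 and 605 in the acute and 396 and 423 in the chronic libraries (acute log2 fold change 2.99 ± 0.49, adjusted p = 0.44, and chronic 2.63 ± 0.49, adjusted p = 0.29, edgeR). Bst2 was at 410 and 260, 1014 and 1640, and 870 and 1236 CPM, and Ifi27l2a at 1452 and 1796, 4936 and 4297, and 3194 and 6522 CPM, neither with overlap. Other genes that stood far above the urothelium in macrophages had overlapping groups. Isg15 was at 1051 and 102 CPM in healthy, 973 and 730 in acute and 727 and 372 in chronic libraries, Rsad2 at 379 and 25.5, 353 and 234, and 539 and 75.7, and Oasl1 as given above. Healthy 1 was the highest library for Isg15 and Oasl1 and lay among the injured libraries for Rsad2, and healthy 2 was far below. Of the 2 other leading genes, Ifit2 (25.4 and 0, 63.7 and 112, 104 and 25.2 CPM) and Zbp1 (76.3 and 21.3, 98.5 and 156, 188 and 214 CPM) were higher in both acute than in both healthy libraries, and Zbp1 in both chronic ones too.

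Of 33 tested members in macrophages, 26 had a positive acute log2 fold change, 17 without overlap (15.8% of all genes) and 13 with an unadjusted p below 0.05 (1.78%), and 1, Ifi27, a lower level with such a p (1.21%). In chronic macrophages 29 were positive, 20 without overlap (21%) and 11 with an unadjusted p below 0.05 (2.38%). Since 9 genes did not pass the filter, the counts of higher genes over all 42 without it were 16 and 18 (1.66% and 1.94% of all genes), with 1 gene lower in each comparison (1.68% and 2.79%). EdgeR called 0 members in both comparisons and DESeq2 called Irf7 in both (0.0603% of all genes in acute and 0.211% in chronic macrophages). Without healthy 1 or acute 1 edgeR called Irf7 in acute (0.0857% and 0.11% of all genes), and without healthy 1 in chronic macrophages (0.171%). Acute and chronic macrophages had no tested member with an unadjusted p below 0.05 (4 of 42, all lower in acute, without the filter, against 1.41% of all genes), and edgeR and DESeq2 called 0. The classes hold 39 to 169 cells.

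Of the interferon genes themselves, Ifnb1 and Ifne were the 2 that all tables list. Ifnb1, the beta interferon, was read in macrophages at 175 and 17 CPM in the healthy, 127 and 41.5 in the acute and 286 and 12.6 in the chronic libraries, with the groups overlapping. It was at 0 in fibroblasts and endothelial cells of each library and at most 2.34 CPM in myofibroblasts, and macrophages were above the urothelium by 9.81 ± 0.52 log2 units (adjusted p = 1.0e-12, edgeR). Ifne, an epithelial interferon, was at 0.621 to 2.2 CPM in intermediate urothelial cells.

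The rest of the pathway was compared between classes in the same fits. The type I receptor chains Ifnar1 (0.95 ± 0.16) and Ifnar2 (1.61 ± 0.20) and the interferon gamma receptor chain Ifngr1 (2.22 ± 0.21) were higher in fibroblasts than in urothelium, and Ifngr2 was lower (-0.70 ± 0.16), that is 3 higher and 1 lower of 5 tested, where 33% of all genes were higher and 38.5% lower. Of the receptor kinases, Jak1 was higher (0.73) and Tyk2 lower (-0.89). The feedback inhibitors Socs3 (4.30 ± 0.39) and Socs1 (3.32 ± 0.33) were higher, and the phosphatases Ptpn6 and Ptpn2 lower, of 6. In macrophages 5 of 5 receptors and 4 of 6 inhibitors were higher than in urothelium (22.6% of all genes). A separate list of 57 further interferon-stimulated genes had 34 higher and 4 lower of 50 tested in fibroblasts (median 1.57, against -0.08 over all genes), led by Ifitm1 (6.33 ± 0.33), and 44 higher and 2 lower in macrophages (median 3.32, against -0.24 over all genes). After acute injury 16 of 49 tested genes of that list were higher in fibroblasts by the unadjusted p (2.5% of all genes, median 0.68), and edgeR called 0 (0.11% of all genes). Acute counts were lower elsewhere, with 1 of 29 in basal, 3 of 50 in intermediate and 2 of 37 in superficial cells. They were 4 of 32 in myofibroblasts and 2 of 31 in macrophages. In acute injury 1 gene was lower in intermediate and 2 in superficial cells. Chronic fibroblasts had 7 higher and 1 lower of 49, and chronic macrophages 6 higher and 0 lower of 31. Chronic intermediate cells had 5 higher and 1 lower of 50, basal cells 2 and 0 of 29, superficial cells 2 and 2 of 37. Chronic myofibroblasts had 2 higher and 0 lower of 32. Endothelium is left out of these counts, as its healthy level rests on 1 library. The shares of all genes that were higher stand with the injury counts of each class.

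The urothelium also had injured libraries above healthy ones for part of the 42 genes. Intermediate cells had 19 of 41 tested members higher without overlap in acute (12.2% of all genes) and 18 in chronic injury (14.3%), with 10 (2.2%) and 13 (2.91%) at an unadjusted p below 0.05. Basal cells, with 31 tested, had 15 (10.9%) and 13 (12.7%) without overlap and 10 (1.35%) and 6 (2.16%) at that p. Superficial cells, with 39 tested, had 16 (16.5%) and 20 (18.1%), and 8 (3.13%) and 10 (2.9%). Over all 42 without the filter the counts by p were 11 and 13 in intermediate (2.24% and 2.84% of all genes), 11 and 6 in basal (1.78% and 1.89%) and 9 and 10 in superficial cells (3.25% and 2.76%). EdgeR called 0 members in all 3 layers, where it called 0% of all genes. DESeq2 called Xaf1 in acute (0.106% of all genes) and Lgals3bp in chronic intermediate cells (0.393%). It called none in the other layers (0.0562 to 0.361% of all genes).

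Lgals3bp was at 81.6 and 58.6 CPM in healthy, 115 and 97.8 in acute and 151 and 198 in chronic intermediate cells, so that the 3 groups did not overlap and the chronic libraries were highest (chronic log2 fold change 1.33 ± 0.23, adjusted p = 0.54, edgeR). Usp18 stood at 24.8 and 22.2, 30 and 28, and 38.3 and 37.6 CPM in the same order (0.72 ± 0.18 in chronic cells). Xaf1, which promotes apoptosis, was at 5.9 and 2.75, 12.2 and 20.8, and 10.1 and 17.9 CPM (1.98 ± 0.47 in acute cells). Oasl1 (values above) was higher in each injured than in each healthy intermediate library, by 0.98 ± 0.27 in acute and 1.19 ± 0.27 in chronic cells, and its level in the urothelium exceeded that in fibroblasts.

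Irf7 was at 10.1 and 2.62 CPM in healthy, 24.4 and 18.2 in acute and 13.4 and 65.6 in chronic intermediate cells, and at 10.4 and 1.63, 40.6 and 19.3, and 13.7 and 123 CPM in superficial cells. Chronic 2 was the highest library in both layers (chronic log2 fold change 3.31 ± 0.99 in superficial cells, adjusted p = 0.78, edgeR). Without it the chronic log2 fold change of Irf7 was 0.99 in superficial and 1.16 (2.62 with it) in intermediate cells. Ifit1 in basal cells was counted as 2 and 2 UMIs in healthy, 10 and 17 in acute and 8 and 10 in chronic libraries (acute 3.52 ± 0.69). It stood there at 1.31, 1.72, 3.16, 1.22, 1.68 and 2.97% of the fibroblast level, which did not exceed the highest stromal marker in either healthy library, in acute 2 or in chronic 1. Isg15 in intermediate cells was at 3.24 and 0.602, 4.67 and 16.6, and 3.31 and 5.77 CPM. As given above, Ifit3 in intermediate cells and Ifit3 and Ifi27l2a in superficial cells did not exceed the highest stromal marker as a percentage of the fibroblast level, Isg15 in intermediate cells stood at 1.35 to 3.03%, and the part of carried-over RNA in their injury values was not tested. Without acute 1, edgeR called 3 members in acute basal (Isg15, Ifit3 and Ifi27l2a), 2 in intermediate (Ifit3 and Ifi27l2a) and 1 in superficial cells (Ifi27l2a), against 0.33%, 0.47% and 0.46% of all genes. The acute values of these genes rest on acute 2. Without it the log2 fold change of Isg15 in basal cells went from 3.38 to 0.09 and that of Ifi27l2a from 1.79 to 0.55, and in intermediate cells Ifit3 went from 3.88 to 0.36 and Ifi27l2a from 1.77 to 0.51. Between acute and chronic injury, Lgals3bp (-0.71) and Igtp (-1.64) in intermediate cells and Irf1 (-1.35 ± 0.37) and Igtp (-1.16) in superficial cells had an unadjusted p below 0.05 and a lower acute level (2.23% and 1.8% of all genes), and edgeR and DESeq2 called 0 members. Without chronic 1 the value of Igtp in intermediate cells was -0.63.

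Of the 7 genes of MHC class I presentation, 0 to 2 in a layer were higher without overlap in injured urothelium (Tap1 and Psmb9 in chronic basal cells), where 10.9 to 18.1% of all genes were. B2m was at 1141 and 590 CPM in healthy, 640 and 316 in acute and 455 and 652 in chronic superficial cells, and H2-K1 at 572 and 354, 325 and 180, and 295 and 369 CPM. For H2-K1 both acute libraries were below both healthy ones, whereas for B2m they overlapped. In acute superficial cells H2-K1 (-0.90 ± 0.31) and B2m (-0.88 ± 0.37) were the 2 members with an unadjusted p below 0.05 and a lower level (2.49% of all genes), with adjusted p-values of 0.71 and 0.88 (edgeR). Without healthy 1 they were at -0.55 and -0.37, and without acute 1 at -1.30 and -1.38. In intermediate cells the median over the 7 genes of this role was -0.06 in acute and 0.09 in chronic injury. Tap1 was at 14.3 and 10.1 CPM in healthy, 18.3 and 14.1 in acute and 23.9 and 20.8 in chronic intermediate cells (0.90 ± 0.25 in chronic).

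Over the 6 classes with 2 healthy libraries, Xaf1, Rtp4 and Ifi27l2a were higher in acute than in healthy libraries without overlap in 6 of 6. Of the 2993 genes tested in all 6 classes, 0.936% were so in 6, 2.14% in 5 and 51.5% in 0, and of the 4565 tested in 5 classes 0.438% were so in 5. Irf7, Ifit1, Ifitm3, Ifi35 and Irgm1 were so in 5 of 6 classes, and Oasl2 and Usp18 in 5 of the 5 classes in which they were tested. Irf1, Samhd1, Ifi27, H2-K1 and H2-D1 were so in 0 of 6. In chronic injury Lgals3bp was higher in 6 of 6 and Irf7, Rtp4, Xaf1 and Tap1 in 5 of 6 classes, and Zbp1 and Ifit3 in 5 of the 5 classes in which they were tested. The chronic shares over all genes were 1.4% for 6 of 6, 2.57% for 5 of 6 and 0.745% for 5 of 5 classes. The acute count of Ifi27l2a includes the 3 urothelial layers, where its level in the healthy and acute libraries was 0.68 to 1.91% of the fibroblast level and did not exceed the highest stromal marker. That of Ifit3 includes intermediate and superficial cells, where it did not exceed the highest stromal marker in any library. The part of carried-over RNA in either count was not tested. The classes come from the same libraries and are not independent. A gene was tested in a class only if it passed the filter on low counts, which a gene high in injured libraries alone can pass. The same holds for the shares over all genes, and the tally was not redone without the filter.

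Whether injury changed the genes more in fibroblasts than in intermediate urothelial cells was tested with an interaction term. EdgeR called 0 of 42 for acute (0.0455% of all genes) and 0 for chronic injury (0.038%). In simulated data this fit called few of the genes given a known difference, so the counts of 0 do not show that the classes responded alike. At an unadjusted p below 0.05 the acute difference was larger in fibroblasts for 4 members (1.5% of all genes), Usp18 (1.66 ± 0.56), Eif2ak2 (1.09 ± 0.38), Stat2 (1.00 ± 0.42) and Psmb9 (0.90 ± 0.38), and smaller for Ifit2 and Irf9 (1.53%). The chronic difference was larger for Rsad2 (2.72 ± 1.10) and Eif2ak2 (1.13 ± 0.43) (3.81% of all genes) and smaller for Ifi27l2a (-1.41 ± 0.47), Irf9 (-1.18 ± 0.48) and Ifitm3 (-0.85 ± 0.35) (3.23%). Leaving out acute 1 gave 4 acute calls (Usp18, Eif2ak2 and Stat2 larger and Irf1 smaller), against 1.22% of all genes, and leaving out healthy 1 gave 1, Usp18 (0.148%). For chronic injury leaving out healthy 2 gave 2 calls (Rsad2 larger and Ifi27l2a smaller), against 2.57% of all genes, and leaving out acute 1 or acute 2 gave 1 (Ifi27l2a smaller), against 1.45% and 1.44%.

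Per cell, the genes were counted at equal depth, with each cell thinned to 3000 UMIs of the genes used and shallower cells left out. A fibroblast held on average UMIs of 9.66 and 7.61 of the 42 genes in healthy, 10.62 and 14.32 in acute and 13.01 and 9.64 in chronic libraries, and a macrophage 12.61 and 9.92, 14.08 and 16.12, and 18.06 and 13.85, whereas an intermediate cell held 3.03 to 5.11. The thinned fibroblasts leave out 272 of 801, 1235 of 1350, 98 of 319, 1240 of 1435, 1122 of 1189 and 12 of 26 cells. Of those kept, 22.5% (Wilson 95% interval 19.1 to 26.2) and 2.61% (0.891 to 7.39) had a UMI of Isg15 in healthy 1 and 2, 42.1% (35.8 to 48.7) and 68.7% (61.9 to 74.8) in acute 1 and 2 and 37.3% (26.7 to 49.3) in chronic 1, and unthinned the shares were 25.8, 3.26, 42.9, 61.8 and 22.1%. Both acute shares lay above both healthy ones. In basal urothelial cells the thinned share of Isg15 was 0.146 to 5.29% over the 6 libraries. Isg15 was there at 0.348 to 3.03% of its fibroblast level and the stromal markers at 0.449 to 8.32% of theirs. The part of carried-over RNA in this share was not tested. The Wilson intervals cover counting error only.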

How the data were processed

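Single cells of the bladder mucosa were profiled with 10x 3′ v2 chemistry in 6 libraries, 2 each from healthy, acutely and chronically injured mice. The authors deposited raw UMI counts per gene and cell from Cell Ranger on mm10, without normalization. The libraries were processed in batches, and which library was in which batch is not given in the sources used here, so no batch term was fitted. A cell needed more than 500 genes and less than 10% of its UMIs from mitochondria. Cells called as doublets against simulated pairs, and clusters rich in them, were left out. 1 line of healthy 1 was cut short and left out. Cells were integrated with Seurat 5.3.0 (3000 genes, 50 components) and clustered with leidenalg 0.10.2 (30 components, 20 neighbours, resolution 0.8). The genes used for this left out the 42 and the listed pathway and further interferon-stimulated genes. Classes were named by markers. UMIs were summed per library and class (at least 20 cells) and tested with edgeR 4.0.16 (quasi-likelihood, TMM, filterByExpr, Benjamini-Hochberg threshold 0.05 over all genes tested). Injury fits held all 3 groups, and class comparisons and the interaction kept the library as a block. The filter on low counts keeps a gene that is high in 1 group only, so counts by the unadjusted p are also given without it for most comparisons. Counts of libraries without overlap were taken only over genes that passed the filter. The 2 libraries per group are the replicates, depth per library is given in the report, and a count of 0 UMIs allows up to 3. DESeq2 1.42.0, other scaling, no filter, stricter cells, doublets kept, no integration, a replicate block and leaving out each library were alternatives. Procedures were tested on simulated data. All 42 genes may be named, with full values for those called or without overlap and of the largest change. The members and lists were chosen with earlier results of these data known.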

Additional observations from a re-analysis of the deposited data

Results flagged for a closer look

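For a few of the 42 genes every library of one comparison lay on the opposite side of healthy from every library of another, by the log2 fold change against healthy libraries. Psmb9 was at 0.72 in acute and -0.93 in chronic myofibroblasts, and in chronic injury it was at 0.60 in basal cells and 0.21 in macrophages. Its chronic myofibroblast value rests on 86 and 87 cells. Eif2ak2 in chronic injury was at -0.25 in intermediate cells and 0.98 in fibroblasts, and the test of that difference gave 1.13 ± 0.43 with an unadjusted p of 0.021 and an adjusted p of 0.67 (edgeR). Samhd1 in chronic injury was at -0.25 in basal cells, 0.19 in superficial cells and 0.79 in fibroblasts. Ifi27 in chronic injury was at 0.75 in intermediate cells, 0.36 in fibroblasts and -0.68 in macrophages. H2-D1 in chronic injury was at -0.18 in superficial cells and 0.33 in macrophages. Apart from those of Eif2ak2, and of Psmb9 between acute and chronic myofibroblasts, these differences were not tested.

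In 4 classes that entered no injury test, the module mean (mean log2(CPM + 1) of the 42 genes) of each injured library with at least 20 cells was above that of each healthy one. The lowest injured and highest healthy values were 3.74 and 3.54 in cycling urothelial cells and 3.80 and 3.57 in urothelial cells left unnamed. They were 5.92 and 5.77 in the MHC class II class (without acute 1, which had 15 cells), and 5.97 (acute 2 alone) and 4.40 in NK/T cells. The unnamed urothelial cells had the stromal genes Col1a1 and Cxcl14 among their leading genes, and 1229 of the 3233 cells clustered there came from acute 2. The part of stromal RNA in their values was not tested.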

How the results depend on the processing

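Of the counts of called members under the alternatives, 394 kept their value within 1.5 times, 38 were larger and 8 smaller. The counts kept include those of 0 in both fits, and the main fit had 0 in every injury comparison. Of the single-gene values 5211 kept direction and call, 81 gained and 141 lost a call. Those kept include genes called in neither fit or without an adjusted p, so neither tally measures stability by itself. With DESeq2 the injury calls went from 0 to 1 in acute (0.106% of all genes) and 1 in chronic intermediate cells (0.393%). In the same order they went to 1 (0.238%) and 1 (0.256%) in fibroblasts and 2 (0.0862%) and 1 (0.209%) in myofibroblasts. Macrophages had 1 (0.0603%) and 1 (0.211%). The calls between myofibroblasts and fibroblasts went from 4 to 2 (15.2% of all genes). Without the filter on low counts there were 2 in acute fibroblasts (0.198% of all genes). Myofibroblasts had 11 in acute (0.564%), 2 in chronic (0.352%) and 1 between acute and chronic libraries (0.409%). There were 2 between acute and chronic endothelium (0.237%), and 4 in acute (0.154%) and 2 in chronic macrophages (0.239%). Fitting only the libraries of the groups compared gave 1 in chronic fibroblasts, and keeping doublets 1 in acute fibroblasts. Without integration macrophages had 1 library and 0 calls against 38, and myofibroblasts against fibroblasts 2. The share of all genes is not given for fits of only the groups compared, with doublets kept, without integration or with a replicate block. For injury fits with 1 library left out, the shares stand with the results of each class.

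Replicate numbers correlated between groups at -0.33 to 0.42 over 19 pairs, not all above 0.1, so the libraries were not treated as paired, and a replicate block gave 2 calls (Zbp1 and Ifit1) in acute fibroblasts.

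Leaving out 1 library gave 0 to 3 calls in acute basal, 0 to 2 in acute intermediate and 0 to 1 in acute superficial cells, 0 to 14 in acute and 0 to 2 in chronic fibroblasts and 0 to 3 between them, 0 to 1 in acute myofibroblasts, 0 to 6 between acute and chronic endothelium, 0 to 1 in acute and 0 to 1 in chronic macrophages, 1 to 3 between myofibroblasts and fibroblasts, and 0 to 4 (acute) and 0 to 2 (chronic) for the difference between fibroblasts and intermediate cells.

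The sign turned in chronic fibroblasts without chronic 1 for Iigp1 (-8.41, and -8.41 to 2.35 over the libraries left out) and Igtp (-0.72 to 2.02), without acute 2 for Ifit3 between acute and chronic endothelium (-0.19 to 2.51) and Rtp4 in NK/T cells against urothelium (-1.13 to 2.19), and without integration in macrophages against urothelium for Irf9 (-1.68), Tapbp (-0.44), Ifi44 (-5.30), Gbp3 (-6.74), Trim30a (-7.45), Rtp4 (-8.69), Parp14 (-8.89), Ifit1 (-8.49), Tap1 (-1.14), Oasl1 (-9.26), Ifit2 (-4.57), Irgm1 (-8.86) and Ifit3 (-6.66), where 1 library was left. Other causes were not tested. Classes of under 50 cells limit the precision of their values.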
